A study of Mus musculus with 23 samples.

Results

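The genes described here are 48 genes of the cell cycle and of DNA replication, measured in the epithelium of the mouse mammary gland before, during and after pregnancy. They were chosen by name, and each was read through 1 probe set (a group of short probes on the array made against one transcript), the one annotated to that gene symbol alone with the highest mean over all 23 arrays. Of the 48 genes 47 had such a probe set and all 47 passed the filter on low values, out of 18193 named genes on the array and 15378 that passed. Ccnb1, the cyclin that drives entry into mitosis, had no probe set of its own and has no value here. By role, 11 of the genes license and carry out replication, 3 supply nucleotides, 5 are cyclins or the mitotic kinase Cdk1, 3 are transcription factors, 8 are kinases or checkpoint proteins, 12 act at the centromere, spindle or midbody, 3 belong to mitotic ubiquitin ligases and 2 are chromosome proteins.

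A dividing cell first licenses its replication origins with Cdt1, Cdc6 and the Mcm2 to Mcm7 helicase, copies its DNA under cyclins E and A, and then builds a spindle under Cdk1, Plk1 and the Aurora kinases. E2F factors switch on replication genes at the start of S phase, while Mybl2 and Foxm1 drive the later mitotic genes through a cell cycle homology region, called CHR, and CCAAT boxes in their promoters. The mammary epithelium is known for waves of division: ducts grow before and during puberty, and the alveoli that will make milk are built in the first part of pregnancy, before the cells turn to secretion near birth. Transcripts of these genes therefore follow, in most tissues, the share of cells that are cycling. In a sorted population, more cycling cells and more RNA in each cycling cell cannot be told apart.

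The arrays, Affymetrix chips hybridised with biotinylated cRNA made from polyA RNA, came from C57BL/6 female mice without any engineered allele or agent in the labels. Glands of 6 reproductive stages were digested and 3 epithelial populations were purified: cells labelled stem cells, luminal progenitor cells and mature luminal cells. The stages were virgins of 3 weeks (before puberty) and of 9 weeks (adult), days 10, 16 and 19 of pregnancy, and retired breeders, females at the end of their breeding life, with day 19 measured in mature luminal cells only. The surface markers used for sorting and the number of animals behind an array are not given in the sources used here. Stage and cell type together made 16 groups, and 2 arrays each were available for 7 of them, namely the 3 cell types at 9 weeks, stem and luminal progenitor cells at 3 weeks, and stem and mature luminal cells at day 10. Single arrays stood for the remaining 9. Nothing in the labels says that paired arrays came from separate animals, so p-values measure the spread between these arrays, which may be technical.

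Some facts of the whole series bear on every value. The marker genes of basal and myoepithelial cells averaged 9.62 to 12.60 on the stem cell arrays (log2 scale), and those of luminal cells 11.19 to 12.19 on the luminal arrays. Luminal markers also reached 9.68 to 11.64 on the stem cell arrays, the highest on the first 9-week one. Basal markers averaged 6.27 to 10.87 on the luminal arrays, the highest on the day 16 luminal progenitor array. The first 9-week mature luminal array read 11.81 for Krt5 and 12.88 for Krt14, basal keratins. The second read 7.35 and 10.84, and the first 9-week stem cell array 11.64 and 12.76. The mean of 14 leukocyte markers ran from 2.85 to 9.43 over the arrays, that of 10 fibroblast markers from 3.66 to 10.37 and that of 12 endothelial markers from 4.73 to 11.16, and no array had any of these markers at 0. Arrays titled replicate 1 deviated together from their group means in every one of the 21 pairs of groups that could be compared (correlation 0.303 to 0.682), so values with the replicate number as a term are given wherever they change a call. The 3-week mature luminal array and the retired breeder stem cell array had a larger excess of 3′ over 5′ Gapdh signal (5.16 and 3.77) than the other 21 arrays (0.87 to 2.72), a sign of shorter RNA. The number of arrays limits the precision of every comparison.

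Promoter stretches of 7 of the genes are shown because they differ in the motifs known from cell cycle promoters. Pcna is shown as the gene among them whose values over the arrays are least like those of the other members. They are RefSeq sequence of build GRCm38.p6, read 5′ to 3′ along the gene's strand, from 170 bases before the transcription start to at most 30 bases past the gene's outermost annotated start. Capitals mark matches, on either strand, to the CHR (TTTGAA), the CCAAT box (CCAAT) or an E2F site (TTCCCGC or TTGGCGC). Cdk1 lies at chr10:69352883-69353082 (minus strand), Cdc20 at chr4:118437314-118437513 (minus), Kif11 at chr19:37376212-37376411 (plus), Mcm5 at chr8:75109339-75109497 (plus), Mcm6 at chr1:128359676-128359875 (minus), Melk at chr4:44300747-44300938 (plus) and Pcna at chr2:132253151-132253350 (minus).
Cdk1: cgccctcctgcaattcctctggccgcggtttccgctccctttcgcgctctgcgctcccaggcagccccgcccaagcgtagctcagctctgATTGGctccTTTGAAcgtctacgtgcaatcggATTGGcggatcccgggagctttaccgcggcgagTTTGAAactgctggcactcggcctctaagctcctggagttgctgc
Cdc20: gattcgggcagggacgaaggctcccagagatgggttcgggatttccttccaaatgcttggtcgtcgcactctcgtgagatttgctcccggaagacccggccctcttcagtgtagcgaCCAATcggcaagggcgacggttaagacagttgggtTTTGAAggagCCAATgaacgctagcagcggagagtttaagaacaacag
Kif11: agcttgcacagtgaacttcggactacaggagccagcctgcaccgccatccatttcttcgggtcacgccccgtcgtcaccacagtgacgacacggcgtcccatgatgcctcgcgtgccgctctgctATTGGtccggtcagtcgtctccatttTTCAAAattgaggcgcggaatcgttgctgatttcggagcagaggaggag
Mcm5: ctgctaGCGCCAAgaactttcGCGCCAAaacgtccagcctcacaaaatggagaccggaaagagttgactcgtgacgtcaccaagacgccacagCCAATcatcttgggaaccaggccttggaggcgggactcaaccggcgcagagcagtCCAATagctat
Mcm6: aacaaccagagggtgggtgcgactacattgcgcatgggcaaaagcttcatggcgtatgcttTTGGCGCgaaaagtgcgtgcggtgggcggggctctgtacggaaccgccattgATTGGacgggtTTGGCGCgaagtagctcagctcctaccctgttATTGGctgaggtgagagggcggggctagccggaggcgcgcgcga
Melk: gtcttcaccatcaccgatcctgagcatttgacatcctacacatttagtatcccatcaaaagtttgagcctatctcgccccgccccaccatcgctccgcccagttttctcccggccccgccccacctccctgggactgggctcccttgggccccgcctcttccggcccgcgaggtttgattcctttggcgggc
Pcna: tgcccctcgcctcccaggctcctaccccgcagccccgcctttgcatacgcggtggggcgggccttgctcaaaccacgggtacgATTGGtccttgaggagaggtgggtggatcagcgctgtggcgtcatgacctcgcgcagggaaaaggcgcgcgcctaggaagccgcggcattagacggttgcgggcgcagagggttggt
The mitotic genes Cdk1, Cdc20 and Kif11 hold CHR and CCAAT matches, with 2 CHR matches in Cdk1 and 1 each in Cdc20 and Kif11. The helicase genes Mcm5 and Mcm6 hold 2 E2F and 2 CCAAT matches each and no CHR match. The Melk stretch holds none of these letters, and the Pcna stretch holds 1 CCAAT match. Promoter windows of 300 bases, 250 before and 50 after the start, were found for 39 of the 48 genes and gave 41 windows. The CHR letters were in 20 of the 41 windows (48.8%), against 17.9% of 32851 windows of the same length. Not every mitotic gene held them: the windows of Nusap1, Bub1, Birc5 and Cenpe had no CHR match. The CCAAT letters were in 73.2% against 37.4%, the E2F letters in 29.3% against 6.81%, and CHR and CCAAT letters together in 46.3% against 6.95%. Read on the other strand the CCAAT box is ATTGG, whose last letters can overlap the start of TTGGCGC. Ccna2, Ccne2, Mcm4, Aurkb, Kif20a, Tpx2, Gins1, Gins2 and Foxm1 had no entry.

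Values below are log2 signals of 1 probe set, and differences are log2 differences ± 1 standard error from a limma fit to all 23 arrays with 1 mean per group, where adjusted p means Benjamini-Hochberg adjustment over the 15378 genes and the threshold is 0.05. The fit had 7 residual degrees of freedom. Because signals of different probe sets depend on the probes, levels are compared between arrays and never between genes.

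At day 10 of pregnancy, when alveoli are being built, 43 of the 47 genes were above the 9-week virgin level on average over the 3 cell types, and 5 passed the test: Melk, Ccna2, Mcm7, Mcm5 and Cdc20. None of the 47 passed in the other direction. Over all genes tested 0.923% were called higher and 1.22% lower in this comparison. The median difference of the 47 genes was 1.34, against 0.11 for all genes, and 31 had an unadjusted p under 0.05 (all genes: 16.4%).

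Among the replication genes, the helicase subunits Mcm5 and Mcm7 were the ones called. Mcm7 read 9.83 and 8.76 on the 9-week stem cell arrays, 8.86 and 8.91 on the luminal progenitor arrays and 9.08 and 9.47 on the mature luminal arrays (replicates 1 and 2). At day 10 it read 11.00 and 10.20 in stem cells, 10.36 in luminal progenitors and 10.34 and 10.98 in mature luminal cells. Every day 10 array was thus above every 9-week array. The difference was 1.39 ± 0.29 (adjusted p = 0.03278, limma), and 4 probe sets of Mcm7 gave 1.24 to 1.40. Mcm5 ran from 6.82 to 9.21 over the 6 arrays of 9-week virgins and from 9.62 to 10.69 over the 5 arrays of day 10, again with no overlap. Its difference was 2.15 ± 0.46 (adjusted p = 0.03426, limma), and its other probe sets gave 2.03 and 0.79.

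Mcm2, another helicase subunit, was 1.30 ± 0.49 higher without passing the test (adjusted p = 0.2145, limma). Its 9-week values spread from 6.71 in stem cells to 8.90 in mature luminal cells and overlapped the day 10 values of 8.4 to 9.69. Pcna, the sliding clamp that holds polymerases on DNA, differed by -0.20 ± 0.20 (adjusted p = 0.6683, limma). The role as a whole had 9 of 11 genes above 0, a median difference of 1.06 and the 2 calls named. Of the 3 genes of nucleotide supply 0 passed: the ribonucleotide reductase subunits Rrm1 and Rrm2 differed by 1.39 and 0.48, and the thymidylate synthase Tyms by 0.71.

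Ccna2, cyclin A2, which partners with kinases in S phase and early mitosis, was the called member among the cyclins. At 9 weeks it read 8.59 and 6.79 in stem cells, 7.89 and 7.53 in luminal progenitors and 7.28 on both mature luminal arrays. At day 10 it read 9.46 and 8.67 in stem cells, 9.93 in luminal progenitors and 9.52 and 9.54 in mature luminal cells. The lowest day 10 value, in the second stem cell array, lay just above the highest 9-week value, in the first. The difference was 1.95 ± 0.38 (adjusted p = 0.02086, limma). Cdk1, the kinase that starts mitosis, was 1.97 ± 0.59 higher and missed the threshold (adjusted p = 0.1192, limma). The 9-week arrays of Cdk1 themselves ran from 5.85 to 8.97, and the day 10 arrays from 8.75 to 10.57. Ccne1, cyclin E1, differed by 0.72 ± 0.45 (adjusted p = 0.4576, limma) and Ccne2 by -0.14.

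Melk, a kinase of mitotic cells, had the largest difference of the 47 genes. It read 5.03 and 3.47 in 9-week stem cells, 5.33 and 5.51 in luminal progenitors and 3.20 and 5.07 in mature luminal cells. At day 10 these became 5.59 and 6.47, 8.03, and 7.0 and 7.88. No day 10 array lay below a 9-week array, and the difference was 2.56 ± 0.49 (adjusted p = 0.01999, limma). The 9-week values of 3.47 and 3.20 lay below the medians of their arrays (5.19 and 4.63), among low signals. The sizes of the Melk differences from 9 weeks are therefore uncertain, here and at day 16. The kinases and checkpoint genes had 7 of 8 above 0 with a median of 1.66. The exception was Aurka, Aurora kinase A, at -0.32, whose 9-week mature luminal arrays read 6.61 and 9.39.

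Cdc20, which activates the ubiquitin ligase that ends metaphase, read 6.90 to 8.81 on the 9-week arrays and 8.56 to 9.97 on the day 10 arrays, overlapping only between stem cell arrays. Its difference was 1.85 ± 0.41 (adjusted p = 0.04142, limma). Mki67, the Ki-67 protein that coats mitotic chromosomes, read 9.06 and 6.43 in 9-week stem cells, 8.21 and 6.63 in luminal progenitors and 6.98 and 7.09 in mature luminal cells. At day 10 it read 10.19 and 8.53, then 9.20, then 9.63 and 10.25. The first 9-week stem cell array was the one that overlapped day 10, and the difference of 2.10 ± 0.52 missed the threshold (adjusted p = 0.06487, limma). Top2a, the topoisomerase that untangles sister chromatids, differed by 1.21 ± 0.47 (adjusted p = 0.219, limma), and a second probe set of Top2a gave -0.02. All 12 centromere, spindle and cytokinesis genes were above 0 with a median of 1.43, and 0 of them passed. The transcription factors E2f1, Mybl2 and Foxm1 differed by 1.68 ± 0.46, 1.54 ± 0.56 and 0.84 ± 0.50, with 0 passing.

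The call count at day 10 depended on how the replicate number was handled and on single arrays. With a term separating arrays titled replicate 1 from the others, 23 of the 47 genes passed (all genes: 4.18%), among them Mki67 (adjusted p = 0.009882), Cdk1 (0.006332), E2f1 (0.02751), Top2a (0.0419) and the 5 named above. With that term on numbered arrays only 14 passed (all genes: 2.28%) and Cdc20 did not. Within arrays titled replicate 1 the median difference was 1.05, and among the others 1.66. Without the first 9-week stem cell array 16 genes passed. The count was 0 without the day 10 luminal progenitor array, without the second day 10 mature luminal array or without the first 9-week luminal progenitor array. It was 1 without the first 9-week mature luminal or the first day 10 stem cell array, and 2 without either 3-week stem cell array or the second 9-week luminal progenitor array. It was 3 without the second 3-week luminal progenitor or the second day 10 stem cell array. The share of all genes called without single arrays is not given here, so these counts show only how the calls depended on single arrays. Leaving out any array moved the median difference no further than 1.03 to 1.61.

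**Figure D1:**
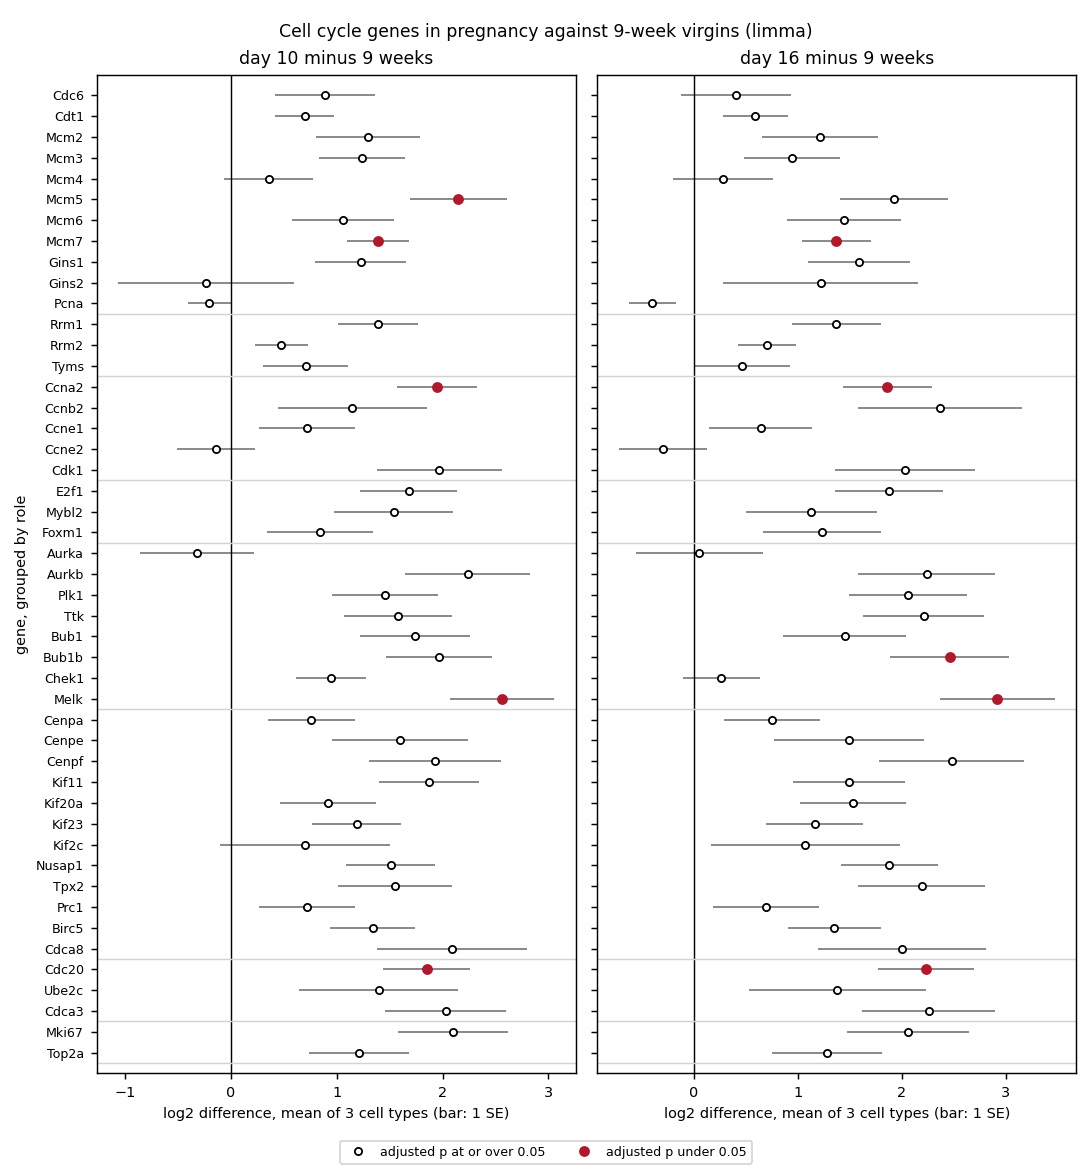
The log2 difference of each of the 47 genes between pregnancy and 9-week virgins, averaged over 3 cell types, is plotted by role for day 10 (left) and day 16 (right), with bars of 1 standard error and filled points for adjusted p under 0.05. Most points lie between 0 and 3, with 43 genes above 0 at day 10 and 45 at day 16, and 5 filled points in each panel.

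At day 16 the picture was similar. Of the 47 genes 45 were above the 9-week level, 5 were called higher and 0 lower (all genes: 1.45% higher and 1.83% lower), and the median difference was 1.38 against 0.10 for all genes. Melk, Cdc20, Ccna2 and Mcm7 were called at both days, which share the 9-week arrays as controls. The fifth gene at day 16 was Bub1b, a kinase-like protein of the spindle checkpoint.

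Each cell type had 1 array at day 16. Melk read 6.51 in stem cells, 8.13 in luminal progenitors and 7.92 in mature luminal cells, each above all 6 arrays of 9-week virgins, and differed by 2.92 ± 0.55 (adjusted p = 0.01692, limma). Bub1b read 6.96, 7.22 and 8.26, against 3.67 to 6.03 at 9 weeks. On the second 9-week stem cell and luminal progenitor arrays (3.67 and 4.11) Bub1b lay below the array medians of 5.19 and 4.93, so the size of its difference is uncertain. Its difference was 2.46 ± 0.57 (adjusted p = 0.04014, limma), so the groups were apart on every array. Cdc20 differed by 2.23 ± 0.46 (adjusted p = 0.02703), Ccna2 by 1.86 ± 0.43 (0.03766) and Mcm7 by 1.37 ± 0.33 (0.04773), all by limma. Mki67 was 2.06 ± 0.59 higher, Cdk1 2.03 ± 0.67, E2f1 1.88 ± 0.52, Top2a 1.28 ± 0.53, Foxm1 1.23 ± 0.57, Mcm2 1.21 ± 0.56 and Ccne1 0.64 ± 0.50, and Pcna differed by -0.40 ± 0.23, with 0 of these 8 passing.

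By role, the ubiquitin ligase genes had the largest median at day 16 (2.23), followed by the kinases (2.14), the cyclins with Cdk1 (1.86), the chromosome proteins (1.67), the centromere and spindle genes (1.49), the transcription factors (1.23), the replication genes (1.21) and nucleotide supply (0.70). With the replicate term 20 genes passed (all genes: 3.34%), including Mki67 (adjusted p = 0.01968), Cdk1 (0.00691) and Top2a (0.03994) but not E2f1 (0.05867). Without the first 9-week stem cell array 15 passed and without the day 16 mature luminal array 0. The count was 1 without the day 16 stem cell, the day 16 luminal progenitor or the first 9-week mature luminal array, and 2 without any one 3-week stem cell, 3-week luminal progenitor or day 10 mature luminal array or the second 9-week luminal progenitor array. It was 3 without the second 9-week stem cell or the first 9-week luminal progenitor array. For the counts without single arrays no share over all genes is given here either. A set of 4 genes, Mcm5, Mcm7, Ccna2 and Melk, had all 8 arrays of days 10 and 16 above all 6 arrays of 9-week virgins, which is 8.51% of the 47 against 0.657% of all genes.

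**Figure D2:**
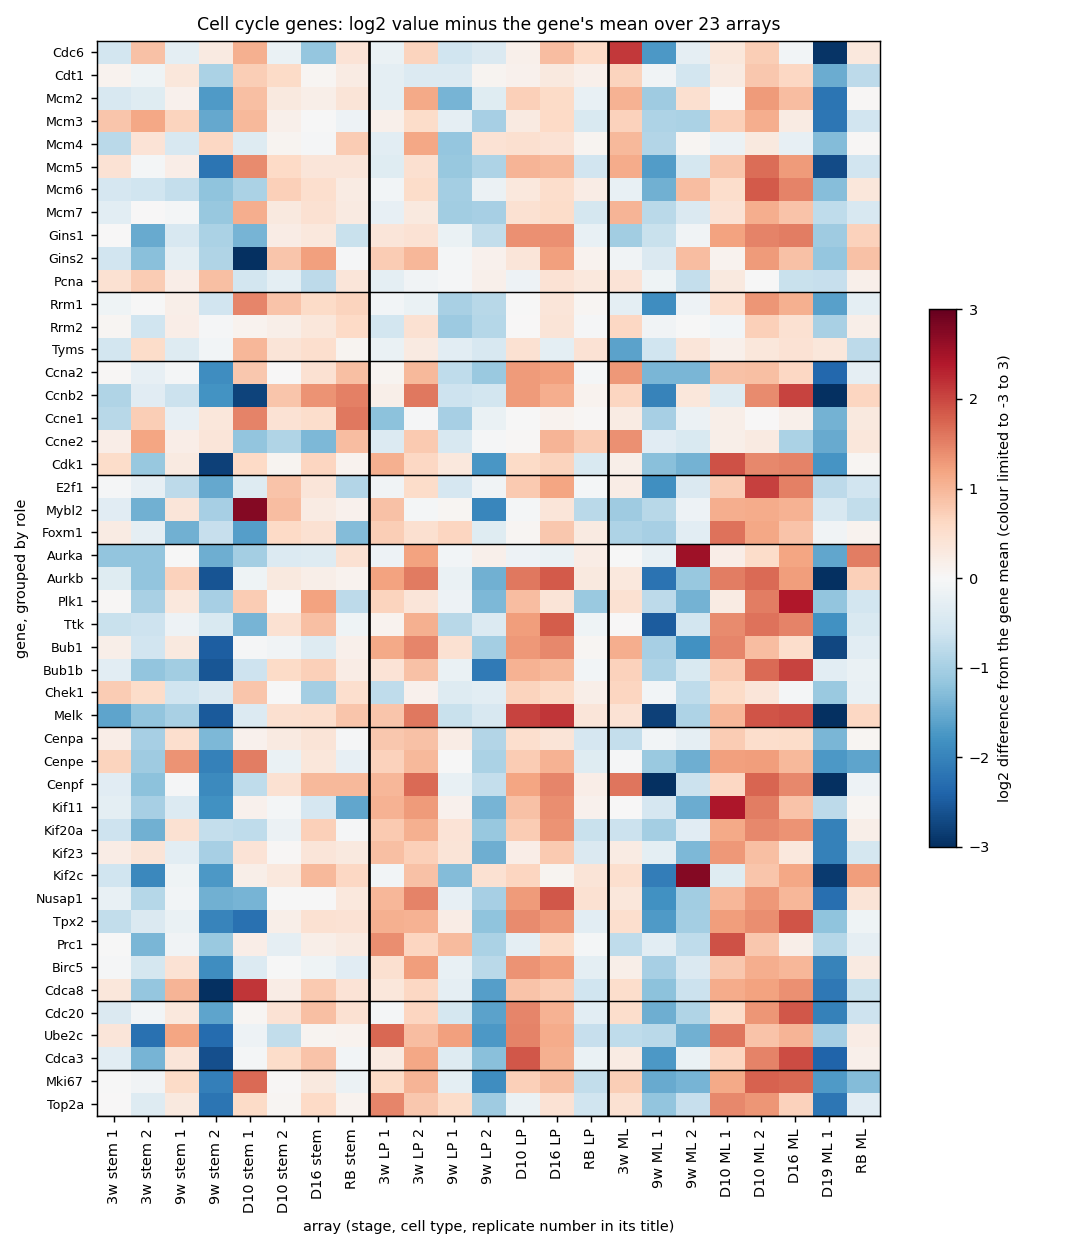
The log2 value of each of the 47 genes (rows, by role) is shown on each of the 23 arrays (columns, by cell type and stage) as its difference from that gene's mean over all arrays. Most rows are above their mean in most columns of days 10 and 16 and below it in most of 9-week virgins and at day 19. Exceptions are the replicate 1 stem cell columns of 9 weeks and day 10, where rows are split between above and below. Pcna varies over only 1.70.

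Within single cell types, over all arrays, the median pregnancy difference was largest in mature luminal cells, but not among arrays outside replicate 1. The median difference over all arrays at day 10 was 1.92 in mature luminal cells, 1.24 in luminal progenitors and 0.91 in stem cells, and at day 16 it was 1.84, 1.44 and 1.01. Among the arrays not titled replicate 1 it was 1.69, 1.68 and 1.72 at day 10 and 1.64, 1.74 and 1.72 at day 16, in the same order of cell types, so the cell types were nearly level there. None of the 47 genes passed the test within a cell type (limma). Of all genes 0.156% at day 10 and 0.371% at day 16 were called higher in mature luminal cells, 0.0455% and 0% in luminal progenitors and 0.0065% and 0.013% in stem cells, and 0.293% and 1.59%, 0.0975% and 0%, and 0.052% and 0.0455% lower. In mature luminal cells 28 of them had an unadjusted p under 0.05 at day 10 and 19 at day 16, against 9 and 11 in luminal progenitors and 9 and 4 in stem cells. Over all genes these shares were 9.09% and 13.1% in mature luminal cells, 11.5% and 6.63% in luminal progenitors and 9.05% and 9.72% in stem cells, so the 4 of 47 in stem cells at day 16 were no more than the background. A cell type with 1 array is assumed here to vary like the groups with 2.

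In mature luminal cells 36 of the 47 genes (76.6%) read higher on all 3 arrays of days 10 and 16 than on both 9-week arrays, a pattern found in 11.1% of all genes. Cdk1 read 7.41 and 7.25 at 9 weeks, 10.57 and 10.11 at day 10 and 10.14 at day 16. Its day 10 difference of 3.01 ± 0.94 had an adjusted p of 0.2554, and of 0.0221 with the replicate term. E2f1, which activates replication genes, read 3.82 and 5.23 at 9 weeks, 6.42 and 7.71 at day 10 and 7.18 at day 16, and differed by 2.54 ± 0.74 at day 10 (adjusted p = 0.2049, limma). Kif11, the motor that separates spindle poles, read 4.67 and 3.68, then 7.58 and 6.69, then 6.02. Its day 10 difference was 2.96 ± 0.76 (adjusted p = 0.1312, limma). Melk differed by 3.31 ± 0.78 (0.1035) and Mki67 by 2.90 ± 0.84 (0.2034). With the replicate term 10 genes passed in this cell type at day 10 (all genes: 1.55%) and 5 at day 16 (1.5%): Melk, Cdk1 and Mki67 at both, with Bub1, Ccna2, E2f1, Kif11, Nusap1, Prc1 and Ttk at day 10 and Cdc20 and Plk1 at day 16. At day 16 in this cell type Melk differed by 3.79 ± 0.95, Cdc20 by 3.05 ± 0.81 and Plk1 by 3.50 ± 0.98, while Ccne2 (-0.55 ± 0.73) and Pcna (-0.24 ± 0.39) lay below 9 weeks. At 9 weeks both values of Plk1 (2.99 and 2.35) and of Ttk (2.21 and 4.16) lay below the array medians (4.63 and 4.83). So did the first value of Melk (3.20) and of E2f1 and the second of Kif11. The sizes of the differences of these genes are therefore uncertain.

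In luminal progenitors 37 of 47 genes (78.7%) were higher on both pregnancy arrays than on both 9-week arrays, against 34.0% of all genes. In stem cells 12 of 47 (25.5%) were, against 14.7%, namely Mcm2, Mcm5, Mcm7, Rrm1, Tyms, Ccna2, Ccne1, E2f1, Bub1b, Melk, Kif23 and Kif2c. The smallest p values in luminal progenitors were those of Cdc20 at day 10 (2.53 ± 0.81, adjusted p = 0.2941, limma) and Nusap1 at day 16 (2.48 ± 0.82, 0.512). In stem cells Pcna, described further on, had the smallest p at both days, with lower levels in pregnancy. Among higher levels in stem cells the smallest p values were those of Mcm7 at day 10 (1.30 ± 0.47, 0.4653) and Bub1b at day 16 (2.52 ± 0.99, 0.4571). The first 9-week stem cell array was itself high: its median over the 47 genes was 7.28, against 6.06 on the second, and the day 10 stem cell arrays had 7.66 and 7.25. Among arrays titled replicate 1 the stem cell median difference at day 10 was 0.27, and among the others 1.72. Tested as a difference between cell types, the effect of days 10 and 16 was larger in mature luminal than in stem cells by a median of 0.78, with 0 of 47 genes passing (limma; all genes: 0.0065% higher) and 3 at an unadjusted p under 0.05 (all genes: 5.86%). Pcna had the smallest p in that test (1.31 ± 0.42, adjusted p = 0.5335, limma), before Nusap1 (2.10 ± 0.89) and Ttk (2.52 ± 1.08). All 9-week values of Ttk lay below their array medians, so the size of its difference is uncertain. The corresponding medians were 0.40 for luminal progenitors against stem cells and 0.45 for mature luminal cells against luminal progenitors, also with 0 genes passing (2 and 0 at an unadjusted p under 0.05; all genes: 4.58% and 5.13%). For mature luminal against stem cells the median was 1.89 among arrays titled replicate 1 and 0.07 among the others. Among those others the medians were 0.05 for luminal progenitors against stem cells and -0.05 for mature luminal cells against luminal progenitors.

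Markers of other cells moved with some of these groups. In luminal progenitors the leukocyte marker mean was 3.80 and 6.75 at 9 weeks, 8.81 at day 10 and 8.35 at day 16, and the fibroblast marker mean was 6.77 and 7.04, then 10.14 and 10.37. The basal and myoepithelial marker mean there was 7.62 and 6.84 at 9 weeks, 9.80 at day 10 and 10.87 at day 16. Averaged over the cell types, the 10 basal and myoepithelial markers had median differences of 1.66 at day 10 and 1.95 at day 16, larger than those of the 47 genes. With the replicate term 4 and 5 of them were called higher (all genes: 4.18% and 3.34%). The 14 leukocyte markers had medians of 1.29 and 1.39, close to those of the 47 genes, or 0.97 and 0.30 with that term, and 0 were called. In luminal progenitors of days 10 and 16 only 2 of the 14 leukocyte markers lay below the array's median, against 3 to 11 at 9 weeks. Their part in the luminal progenitor values was not tested. In mature luminal cells the first day 10 array had a leukocyte mean of 3.63, with 13 of the 14 markers below the array's median and Ptprc, the pan-leukocyte surface phosphatase, at 1.89. On that array the median of the 47 genes was 8.35, and on the second day 10 array, with a leukocyte mean of 7.46, it was 8.41. Within the 2 mature luminal arrays titled replicate 1 of 9 weeks and day 10, the median difference of the 47 genes was 2.02. The part of leukocytes in the mature luminal values was not tested. In stem cells the endothelial marker mean was 9.54 and 9.02 at 9 weeks, 6.06 and 6.28 at day 10 and 6.51 at day 16, and its part was not tested.

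**Figure D3:**
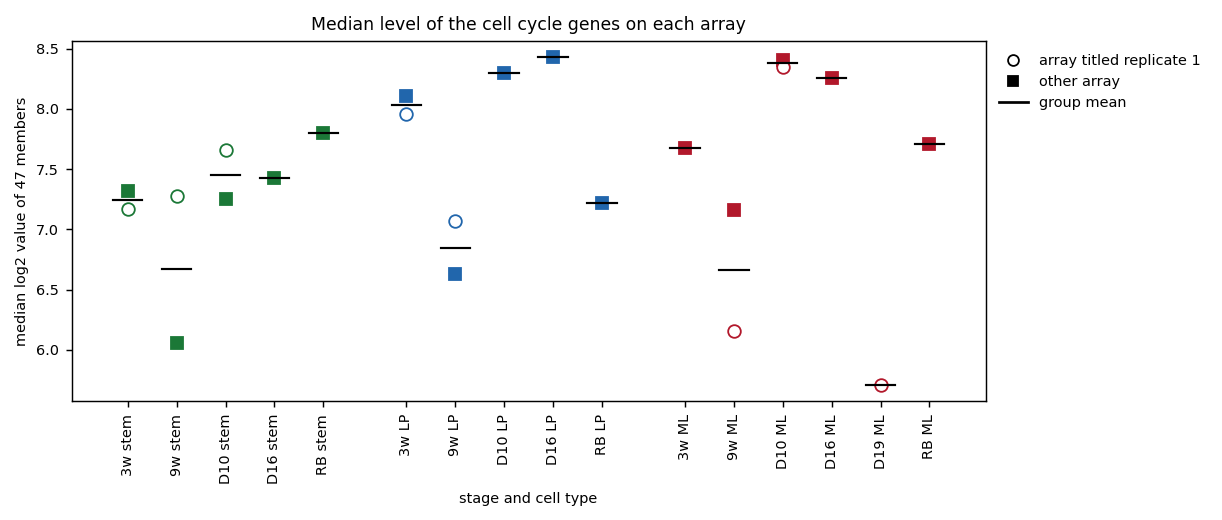
The median log2 value of the 47 genes is plotted for each array by cell type and stage, with open circles for arrays titled replicate 1, squares for all other arrays and a line for the group mean. Mature luminal arrays stand at 6.16 and 7.16 at 9 weeks, 8.26 to 8.41 at days 10 and 16 and 5.71 at day 19.

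Ordered by the mean of that array median, the groups ran from luminal progenitors of day 16 (8.43), mature luminal cells of day 10 (8.38), luminal progenitors of day 10 (8.30) and mature luminal cells of day 16 (8.26) down to the 9-week luminal progenitors (6.85), stem cells (6.67) and mature luminal cells (6.66) and, last, mature luminal cells of day 19 (5.71). Between them came luminal progenitors of 3 weeks (8.04), retired breeder stem (7.80) and mature luminal cells (7.71), 3-week mature luminal cells (7.68), stem cells of day 10 (7.46), day 16 (7.43) and 3 weeks (7.25) and retired breeder luminal progenitors (7.22). The pooled SD between replicate arrays was 0.46. Neighbours in this order were closer than that except at the last step, from 6.66 to 5.71.

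At day 19, shortly before birth, mature luminal cells held the lowest levels of most of these genes. The comparisons with days 10 and 16 were added after the data were seen. Of the 47 genes 46 were below the day 10 level and all 47 below the day 16 level, with median differences of -2.77 and -2.75 against -0.19 and -0.14 for all genes. The single day 19 array left 0 genes past the threshold (limma; all genes called lower: 0.013% against day 10 and 0% against day 16), while 35 and 31 of the 47 had an unadjusted p under 0.05 (all genes: 6.31% and 8.92%). The day 19 array was titled replicate 1.

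Aurkb, the kinase of the chromosomal passenger complex, read 7.31 and 7.47 at day 10 and 7.03 at day 16, and 1.72 at day 19. The difference from day 10 was -5.67 ± 1.15 (adjusted p = 0.2402, limma), or 0.03231 with the replicate term. The day 19 values of Aurkb, of Melk (2.92) and of Bub1 (4.26) lay below that array's median of 4.51, among low signals, so the sizes of these 3 differences are uncertain. Melk differed by -4.52 ± 0.95 from day 10 (0.2461, or 0.0425 with the term) and by -5.00 ± 1.10 from day 16 (0.3001). Ccna2 read 6.29, below every other array of the series, and differed by -3.24 ± 0.74 from day 10 (0.2946, or 0.04021 with the term). With the replicate term 8 genes passed as lower than at day 10 (all genes: 0.403%): Aurkb, Melk, Ccna2, Top2a (-3.54 ± 0.91), Cdk1 (-3.46 ± 1.15), Bub1 (-3.92 ± 1.03), Kif23 (-3.13 ± 0.82) and Prc1 (-2.20 ± 0.89). Between the arrays titled replicate 1 alone the median difference was -2.57.

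Mki67 read 6.79 at day 19 against 9.63 and 10.25 at day 10 (-3.15 ± 1.03, adjusted p = 0.4587, limma). Mcm2 fell short of the threshold at -2.83 ± 0.97, E2f1 at -2.19 ± 0.90, Foxm1 at -1.5 ± 0.98, Ccne1 at -1.52 ± 0.87 and Pcna at -0.83 ± 0.39. Every role had a negative median, from -1.31 for nucleotide supply to -3.34 for the chromosome proteins. Tyms, at 5.29, was the gene not below day 10 (0.09).

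In mature luminal cells 46 of 47 genes (97.9%, all but Tyms) read lower on the day 19 array than on each array of days 10 and 16, against 33.2% of all genes. For 33 genes (70.2%, against 21.1%) day 19 was the lowest of the 8 mature luminal arrays. Against 9-week virgins the median was -0.93 with 0 genes passing (limma; all genes: 0.351% higher and 0.787% lower) and 1 at an unadjusted p under 0.05 (all genes: 11.1%). On the day 19 array 33 of the 47 genes (70.2%) read lower than on both 9-week arrays, against 44.5% of all genes. The smallest p values on the low side were those of Aurka (-2.73 ± 1.06, adjusted p = 0.3356, limma), Cdt1 (-1.16 ± 0.54) and Cdc6 (-1.93 ± 0.92), the last 2 licensing replication origins together. On the high side they were those of Tyms (0.46 ± 0.79), Foxm1 (0.56 ± 0.98) and E2f1 (0.34 ± 0.90). Mcm2 differed by -1.91 ± 0.97, Top2a by -1.22 ± 0.91, Ccna2 by -0.99 ± 0.74, Ccne1 by -0.85 ± 0.87, Cdk1 by -0.45 ± 1.15, Pcna by -0.27 ± 0.39 and Mki67 by -0.24 ± 1.03, with errors too wide to place these genes above or below the virgin level. The leukocyte marker mean was also lowest on the day 19 array, at 2.85, with 13 of 14 markers below the array's median. On the first day 10 array, with 13 of 14 below it too, the median of the 47 genes was 8.35 against 5.71 at day 19. The part of leukocytes in the day 19 values was not tested.

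**Figure D4:**
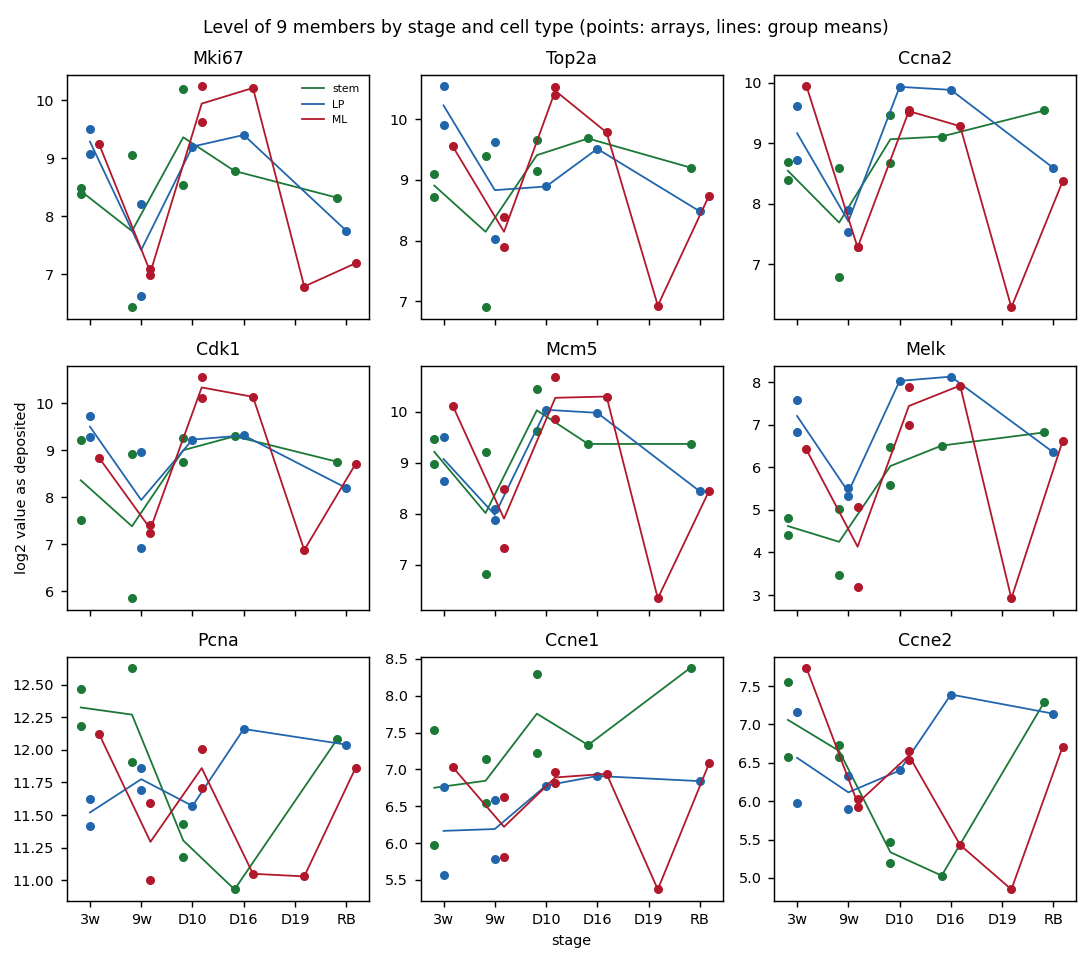
Log2 values of 9 genes are plotted by stage, with 1 colour per cell type, a point for each array and a line through the group means, which passes from day 16 to retired breeders where day 19 was not measured. The group means of Mki67, Ccna2 and Melk are higher at days 10 and 16 than at 9 weeks and low in mature luminal cells at day 19, while Pcna stays between 10.93 and 12.63.

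In 3-week virgins 45 of the 47 genes were above the 9-week level, with a median difference of 0.91 against 0.11 for all genes, and 0 passed (limma; all genes: 0.163% higher and 0.013% lower). An unadjusted p under 0.05 was found for 21 (all genes: 10.9%). Ccna2 was 1.66 ± 0.38 higher (adjusted p = 0.1036, limma, or 0.02039 with the replicate term), and with that term Bub1, a checkpoint kinase, passed as well (1.66 ± 0.52, 0.03606; all genes: 2.31%). With the term on numbered arrays only, neither passed (0.3138 for Ccna2 and 0.3773 for Bub1; all genes: 0.104%). Mcm7 was 1.04 ± 0.29 higher, Mcm3 1.34 ± 0.41, Mki67 1.59 ± 0.52, Top2a 1.19 ± 0.47, Cdk1 1.35 ± 0.59, Mcm2 0.99 ± 0.49, E2f1 0.96 ± 0.46, Foxm1 0.41 ± 0.50, Ccne1 0.23 ± 0.45 and Pcna 0.21 ± 0.20. The differences of Aurka (-0.38 ± 0.54) and Tyms (-0.28 ± 0.40) were below 0, though both turned positive when one or another array was left out.

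By cell type the median 3-week difference was 1.25 in luminal progenitors, 1.33 in mature luminal cells (1 array, the one with the largest Gapdh excess and with a leukocyte mean of 9.43) and 0.28 in stem cells. Tested as a difference between luminal progenitors and stem cells, a comparison added after the data were seen, its median was 0.93 and 0 of 47 genes passed (limma; all genes: 0%), with 1 at an unadjusted p under 0.05 (all genes: 2.01%). In luminal progenitors 34 of 47 genes (72.3%, against 15.0% of all genes) were higher on both 3-week arrays than on both 9-week arrays, and in stem cells 6 (12.8%, against 15.4%). In stem cells the smallest p values at 3 weeks were those of the checkpoint kinase Chek1 (1.16 ± 0.52, adjusted p = 0.918, limma), Mcm3 (1.42 ± 0.65) and Mcm5 (1.2 ± 0.73) above 9 weeks and of Kif20a (-0.90 ± 0.72), Rrm2 (-0.35 ± 0.40) and Mybl2 (-0.59 ± 0.89) below. In mature luminal cells they were those of Ccna2 (2.67 ± 0.74, adjusted p = 0.2099, limma), Cdc6 (3.13 ± 0.92) and Cenpf (3.75 ± 1.22) above and of Tyms (-1.50 ± 0.79), Aurka (-1.17 ± 1.06) and Gins1 (-0.66 ± 0.84) below. Both 9-week values of Cenpf there (1.76 and 4.76) and the first of Cdc6 (4.08) lay below the array medians (4.63 and 4.83). The sizes of the Cenpf and Cdc6 differences are therefore uncertain. Nusap1, which bundles spindle microtubules, read 8.25 and 8.75 in 3-week luminal progenitors against 7.02 and 6.26 at 9 weeks (1.86 ± 0.67, adjusted p = 1, limma). The first array of each pair is titled replicate 1, and the 3-week arrays were the higher ones on both sides. The median over the 3 cell types was 0.74 without the 3-week mature luminal array, 0.27 within arrays titled replicate 1 and 1.2 among the others. Endothelial markers averaged 10.86 and 11.16 in 3-week stem cells, against 9.54 and 9.02 at 9 weeks. Averaged over the cell types, all 12 endothelial markers (median 1.91) and all 14 leukocyte markers (1.90) were above 0, as were 9 of 10 fibroblast markers (1.31). These medians were larger than that of the 47 genes, while those of basal (0.28) and luminal markers (-0.31) were smaller. Of the endothelial markers 1 was called (limma; all genes: 0.163%), and 6 with the replicate term (2.31%). The part of these markers was not tested.

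Averaged over the 3 cell types, retired breeders lay between 9-week virgins and pregnancy in the median of these genes. In stem cells alone the array median of retired breeders (7.80) was above those of day 10 (7.46) and day 16 (7.43), and that retired breeder array is one of the 2 with a high Gapdh excess. Of the 47 genes 45 were above the 9-week level (median 0.57 against 0.21 for all genes) and 40 below the level of days 10 and 16 (median -0.72 against 0.09), with 0 passing in either comparison (limma). Of all genes 0.0065% were called higher and 0% lower than at 9 weeks, and 1.31% higher and 0.215% lower than in pregnancy. Unadjusted p was under 0.05 for 4 and 11 of the 47 (all genes: 7.24% and 14.4%). Melk read 6.82, 6.35 and 6.62 in the 3 cell types, above all 9-week arrays, and differed from them by 2.0 ± 0.55 (adjusted p = 0.5923, limma). Ccna2 differed by 1.27 ± 0.43, Nusap1 by 1.33 ± 0.47, Ccne1 by 1.01 ± 0.50, Cdk1 by 1.0 ± 0.67, Mcm2 by 0.72 ± 0.56, Top2a by 0.43 ± 0.53, E2f1 by 0.36 ± 0.52, Mki67 by 0.35 ± 0.59, and Foxm1 and Pcna by 0.21. The 2 genes below 9 weeks were Plk1 (-0.09 ± 0.57) and Cenpe (-0.03 ± 0.72).

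Against pregnancy, Plk1, a kinase of mitotic entry, read 2.97, 2.65 and 3.21 in retired breeders, below all 8 arrays of days 10 and 16 (3.76 to 6.17), and differed by -1.85 ± 0.55 (adjusted p = 0.1395, limma). Plk1 lay above the array's median on only 2 arrays of the series. Mki67 differed by -1.73 ± 0.58 (0.1866) and E2f1 by -1.41 ± 0.51 (0.219), while Ccne2 (1.02 ± 0.41), Aurka (0.71 ± 0.59) and Pcna (0.51 ± 0.22) were higher without passing. Ccna2 differed by -0.63, Top2a by -0.81, Cdk1 by -1.0, Foxm1 by -0.82, Mcm2 by -0.54 and Ccne1 by 0.33. Without the retired breeder stem cell array, which had the second largest Gapdh excess, and the 3-week mature luminal array, the median against pregnancy was -1.08. Markers of some other cells had larger median differences in retired breeders than the 47 genes. Against 9 weeks, averaged over the cell types, all 14 leukocyte markers were above 0 (median 1.84), as were all 10 basal and myoepithelial (1.27) and all 10 fibroblast markers (2.28), with 0 passing (limma). Fibroblast markers averaged 9.57 in retired breeder luminal progenitors against 6.77 and 7.04 at 9 weeks, and the part of these markers was not tested.

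Averaged over the 5 stages measured in all 3 cell types, the median differences between cell types were small in these genes. Luminal progenitors minus stem cells gave a median of 0.31, mature luminal minus stem cells 0.38 and mature luminal cells minus luminal progenitors -0.05, against -0.04, 0.03 and 0.02 for all genes. In these 3 comparisons 0 genes passed (limma), with 6, 3 and 0 at an unadjusted p under 0.05, fewer than the shares of 18.9%, 22.2% and 4.72% over all genes would give. The all-gene shares called were 0.78% higher and 3.60% lower, 1.56% and 6.78%, and 0.0065% and 0.117%.

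Kif11 had the smallest p between luminal progenitors and stem cells (1.35 ± 0.41, adjusted p = 0.09584, limma), followed by Melk (1.38 ± 0.43, 0.09738) and Nusap1 (1.18 ± 0.37, 0.09921). With the replicate term these 3 and Bub1 passed (all genes: 4.81%), and with it on numbered arrays only Melk and Prc1 did (2.59%). Toward stem cells lay Ccne1 (-0.83 ± 0.39), Rrm1 (-0.55 ± 0.34) and Rrm2 (-0.32 ± 0.22), without passing. In mature luminal against stem cells Aurka (1.36 ± 0.47, adjusted p = 0.1075, limma), Kif11 (1.15 ± 0.41) and Gins1, a helicase cofactor (0.92 ± 0.38), had the smallest p, and Aurka and Kif11 passed with the replicate term (all genes: 6.71%). The low side held Tyms (-0.57 ± 0.35), Ccne1 (-0.58 ± 0.39) and Rrm1 (-0.35 ± 0.34). Between the luminal types the extremes by p were Rrm2 (0.44 ± 0.23), Aurka (0.77 ± 0.49) and Mcm7 (0.41 ± 0.27) on one side and Nusap1 (-0.55 ± 0.38), Melk (-0.52 ± 0.44) and Bub1 (-0.54 ± 0.47) on the other, each with an adjusted p of 0.9998. Mki67, Top2a, Ccna2, Cdk1, Pcna and Mcm2 lay between -0.18 and 0.51 in all 3 comparisons, and E2f1 and Foxm1 between -0.22 and 0.86.

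The 47 genes did not all share one profile. Over the 23 arrays, Pearson's r between a gene and the median of the other 46 had a median of 0.75. It was over 0.8 for 18 genes, led by Aurkb (0.96), Melk (0.95), Birc5 (0.94), which is survivin of the chromosomal passenger complex, and Ccna2, Cenpf and Cdca3 (0.90 each). These points share arrays and groups, so the correlations are a description. Under 0.5 were Pcna (-0.04), Tyms (0.16), Ccne2 (0.24), Ccne1 (0.31), Gins2 (0.33), Aurka (0.41), Mcm4 (0.42), Chek1 (0.45) and Foxm1 (0.47). Cyclins E1 and E2, the partners of the kinase that starts S phase, are thus both among the unlike genes. Foxm1 lay above the array's median on 8 of the 23 arrays and Tyms on 12, and Gins2 had 1 array at 2.23. The part of low signals and of single arrays in these values of r was not tested.

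Pcna is the gene with the smallest range, 1.70 over the arrays around a mean of 11.72, whereas Gins2 ranged over 6.18 and Aurkb over 5.90. In stem cells Pcna read 11.91 and 12.63 at 9 weeks, 11.18 and 11.43 at day 10 and 10.93 at day 16. Both pregnancy stages were below both virgin arrays in that cell type, with differences of -0.96 ± 0.32 (adjusted p = 0.42, limma) and -1.34 ± 0.39 (0.3213). In mature luminal cells Pcna read 11.59 and 11.00 at 9 weeks and 12.01 and 11.71 at day 10, so the order was the opposite (0.56 ± 0.32), while at day 16 it read 11.05, between the 9-week arrays and below their mean (-0.24 ± 0.39). Ccne2 read 6.58 and 6.73 in 9-week stem cells, 5.20 and 5.47 at day 10 and 5.03 at day 16. Gins2, a helicase cofactor, had 1 array far below the rest, the first day 10 stem cell array at 2.23. The second day 10 stem cell array read 7.95, and the other arrays ran from 5.87 to 8.41.

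Of the 34 genes with several probe sets past the filter, 28 had the same sign on all of them at day 10, 28 at day 16 and 30 between day 19 and day 10. The 6 that disagreed at day 10 were Cenpa, Gins2, Kif23, Rrm2, Top2a and Tyms. Mki67, Melk, Cdk1 and Pcna had 1 probe set each, so they have no such check. With the mean of all probe sets of a gene in place of the one with the highest mean, 2 genes were called at day 10 (Melk and Mcm7) and 3 at day 16 (Melk, Cdc20 and Bub1b). At day 16 Bub1b lost its call under quantile normalization and Mcm7 without the filter on low values, both narrowly (limma). The share of all genes called under these settings is not given here.

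Other genes of the same pathways, not among the 48, also lay above 9 weeks in pregnancy. Of 28 further replication and S phase genes 1 was called at day 10 (all genes: 0.923%), Clspn, a checkpoint mediator at the fork (2.19 ± 0.47, adjusted p = 0.03561, limma). All 28 were above 0 with a median of 1.10, and with the replicate term 13 passed (all genes: 4.18%). At day 16 0 were called (all genes: 1.45%), or 2 with the term (3.34%), with a median of 1.04. An unadjusted p under 0.05 was found for 15 at day 16 (all genes: 21%). Of 36 further mitotic genes 5 were called at day 10, namely Ncapd2 (1.82 ± 0.38) and Ncaph (2.15 ± 0.46), both condensin subunits, Cks1b, a small protein bound to cyclin-dependent kinases (0.85 ± 0.18), Spc24 (1.95 ± 0.42) and Pbk (1.82 ± 0.41). At day 16 6 were called, with Cks1b, Spc24 and Ncapd2 again among them, and the medians were 1.26 and 1.22. Of all genes 0.923% were called higher at day 10 and 1.45% at day 16. With the replicate term 20 of the mitotic genes passed at day 10 and 16 at day 16 (all genes: 4.18% and 3.34%). The mitotic list also had 0 genes above day 10 at day 19, with a median of -2.72.

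The regulators of G1, the phase before replication, had smaller median differences. Of 16 such genes (D cyclins, G1 kinases, pocket proteins and other E2F factors) 0 were called at day 10 or day 16, and the median was 0.43 at both. An unadjusted p under 0.05 (limma) was found for 3 at day 10 and 2 at day 16 (all genes: 16.4% and 21%). With the replicate term 2 passed at day 10, E2f8 and the G1 kinase Cdk6 (all genes: 4.18%), and 0 at day 16. The repressor E2f8 had the smallest p at day 10 (1.66 ± 0.43, adjusted p = 0.07317, limma). Ccnd2, cyclin D2, was the one gene of this list called between cell types without the replicate term: it was -3.06 ± 0.69 in luminal progenitors (adjusted p = 0.03037, limma) and -3.21 ± 0.69 in mature luminal cells (0.01408), both against stem cells. Of all genes 3.6% and 6.78% were called lower in these comparisons. With the term Rbl1, a pocket protein, also passed as higher in luminal progenitors than in stem cells (all genes: 4.81%). E2f2 and the pocket protein Rbl2 then passed as higher in mature luminal than in stem cells (all genes: 6.71%).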

How the data were processed

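Affymetrix arrays of polyA RNA from purified mammary cells gave one table of log2 expression values as deposited by the authors, 45101 probe sets on 23 arrays, with values from 0 to 14.28. The labels and the file name no method of summarising or normalising probes (not given in the sources used here), and the values were used as deposited. Of the probe sets 64 were controls, 34945 had 1 gene symbol in GEO's platform annotation, 932 had several and 9160 had none.

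For each gene the probe set with the highest mean was kept. Genes above the 40th percentile of their array on at least 2 arrays were tested (15378). limma 3.58.1 in R 4.3.3 fitted 1 mean per group (lmFit, eBayes with trend, 4.74 prior degrees of freedom), two-sided, with Benjamini-Hochberg adjustment. The script was tested on simulated data with known changes. Comparisons average the cell types, or the stages, with equal weight.

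Groups came from the labelled stage and cell type. Replicate numbers in the titles were taken to pair arrays because all 21 pairs of groups of 2 arrays correlated over 0.1 in their deviations (median 0.47). Of the arrays 15 carry a number and 8 do not; all 8 lie on the replicate 2 side, and the replicate block sets arrays titled replicate 1 against all others.

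Named in each comparison were the members past the threshold (at most 8), otherwise the 3 with the smallest p in each direction, and a standing set of 10 genes (Mki67, Top2a, Ccna2, Ccnb1, Cdk1, Pcna, Mcm2, Ccne1, E2f1 and Foxm1). Within single cell types, and for differences between effects, only part of the genes so chosen is printed. Other genes named singly were chosen after their values were seen. The members and all lists were chosen with earlier results of these data known. Promoters were matched by symbol to RefSeq.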

Additional observations from a re-analysis of the deposited data

Results flagged for a closer look

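No group had 4 arrays or more, so no array could be tested as an outlier. In 3 genes the arrays of one cell type all moved one way and those of another all moved the opposite way. How often this pattern occurs over all genes was not counted, so the count of 3 cannot be read as a result about these genes. At day 10 against 9 weeks, Pcna differed by -0.96 in stem cells, where both day 10 arrays lay below both 9-week arrays, and by 0.56 in mature luminal cells, where both lay above. The difference between these effects was 1.53 ± 0.45 (adjusted p = 0.7756, limma). Ccne2 differed by -1.32 in stem cells and by 0.62 in mature luminal cells, a difference between effects of 1.94 ± 0.84 (adjusted p = 0.8631, limma). At 3 weeks against 9 weeks, Ttk, a spindle checkpoint kinase, differed by -0.34 in stem cells and by 1.2 in luminal progenitors, a difference between effects of 1.54 ± 1.15 (adjusted p = 1, limma). The 9-week values of Ttk and its 3-week stem cell values lay below their array medians, so its sizes are uncertain. None of the 3 genes passed the threshold, and with 2 arrays in each group the number of arrays limits these tests.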

How the results depend on the processing

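With the replicate block on all arrays the genes called higher numbered 23 at day 10 and 20 at day 16 (5 each without it), 2 at 3 weeks, 4 in luminal progenitors against stem cells, 2 in mature luminal against stem cells, 10 at day 10 and 5 at day 16 within mature luminal cells, and 8 were called lower at day 19 than at day 10. With the replicate block on numbered arrays only the counts were 14 at day 10 (all genes: 2.28%), 2 in luminal progenitors against stem cells (2.59%), 11 at day 10 within mature luminal cells (1.56%), 8 lower at day 19 than at day 10 (0.429%) and 0 at 3 weeks (0.104%). An additive fit to arrays not titled replicate 1 gave 11 at day 10, 16 at day 16, 5 in luminal progenitors against stem cells and 2 in mature luminal against stem cells. Shares over all genes are not given for the additive fit, so its counts have no background to be read against. Among arrays titled replicate 1 alone the median difference was 0.27 at 3 weeks, -0.12 in mature luminal against stem cells and -0.77 in mature luminal cells against luminal progenitors.

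Raising values below the array median to it gave 11 genes at day 16, 1 at 3 weeks, 2 at day 10 and 1 at day 16 within mature luminal cells, and 1 lower at day 19 than at day 10. The mean of all probe sets gave 2 at day 10 and 3 at day 16, and eBayes without trend 2 at each. Without the pair of arrays of high Gapdh excess 1 gene was higher in luminal progenitors than in stem cells. Quantile normalization and no filter kept every count within 1.5 times. No share over all genes is given for these settings, so the counts only describe how calls of the members shifted.

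Leaving out single arrays gave 0 to 16 genes higher at day 10, 0 to 15 at day 16, 0 to 3 in luminal progenitors against stem cells (3 without the first 9-week stem cell array) and 0 to 1 in mature luminal against stem cells. These counts are given without the share of all genes called. Medians ran from 1.03 to 1.61 at day 10, 1.19 to 1.73 at day 16, 0.74 to 1.22 at 3 weeks, 0.39 to 0.82 for retired breeders against 9 weeks and -1.08 to -0.51 against pregnancy, and, between cell types, from 0.23 to 0.45, 0.20 to 0.55 and -0.10 to 0.08 for luminal progenitors against stem cells, mature luminal against stem cells and mature luminal cells against luminal progenitors.

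Signs of some small differences turned. Rrm1 became 0.14 and Rrm2 0.21 in luminal progenitors against stem cells with the mean of all probe sets. In mature luminal against stem cells Rrm1 became 0.37 with that mean and 0.03 with the additive fit. Aurka became -0.14 in mature luminal cells against luminal progenitors within replicate 1. At 3 weeks Tyms became 0.28 with raised low values, 0.64 with the mean of all probe sets, 0.33 with the numbered block and 0.34 without the Gapdh arrays, and Aurka 0.02 both with the numbered block and without the Gapdh arrays. For retired breeders against 9 weeks Plk1 became 0.14 with raised low values, 0.19 with the block, 0.43 with the additive fit and 0.09 without the Gapdh arrays, and Cenpe became 0.53 with the block and 0.75 with the additive fit. When single arrays were left out these ranged from -0.46 to 0.33 for Tyms, -0.84 to 0.09 for Aurka, -0.41 to 0.12 for Plk1 and -0.59 to 0.54 for Cenpe. The cause of these changes was not tested. Of the values of single genes and added comparisons under the alternatives 1387 were counted as unchanged, 104 lost the call, 15 gained it, 14 moved by more than the spread and 29 reversed. Genes that were never called and stayed so count as unchanged. Only the 5 genes called at day 10 and the 5 called at day 16 could lose a call, so all 104 losses fell on them.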
